A study of Mus musculus with 32 samples.

Results

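The blood vessel endothelial genes are Pecam1, Cdh5, Esam, Cldn5, Vwf, Kdr, Flt1, Tek, Tie1 and Eng, taken by symbol from the deposited gene table: 10 of its 55103 rows. All 10 were among the 20474 genes with enough counts to be tested. They were followed in bulk RNA-seq of 32 mouse tumours of KPC36, a line that the study's title places in pancreatic ductal adenocarcinoma. The 4 groups held 8 libraries each: tumours treated with carbon ions (carbon_treated), tumours treated with photons (photon_treated), and untreated controls kept for each beam (carbon_ctrl and photon_ctrl). Tumours were collected 4 and 7 days after treatment, but the day of a single library, the dose, and the strain, age and site of the host are not given in the sources used here. Library titles start with D or M, whose meaning is not given either: D titles made up 4 carbon_ctrl and 3 carbon_treated libraries, and all photon libraries had M titles. Title numbers ran from 19 to 48 in photon_ctrl and from 95 upwards in photon_treated, while those of the M-titled carbon groups interleaved (7 to 35 in controls, 1 to 29 after treatment). Whatever the number stands for, it and photon treatment cannot be told apart. Nothing in the labels says that the libraries of a group came from separate animals, so each p-value measures the spread between these libraries.

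Endothelial cells line blood vessels. They are held together by adhesion proteins at their junctions and respond to growth factors through receptor kinases on their surface: VEGF acts on Kdr and Flt1, and the angiopoietins act on Tek, whose partner is Tie1. In tumours these pathways govern the sprouting, leakiness and loss of vessels, and the endothelium is exposed to radiation along with the malignant cells.

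The labels call the cell type malignant, and epithelial genes were abundant, with a summed level of 2396 to 5369 CPM (counts scaled to a common library total) over 8 markers across the 32 libraries. The tissue was a mixture: the 10 endothelial genes were detected in every library, and summed levels ranged from 463 to 1183 CPM for 14 mural cell markers, from 183 to 481 CPM for 9 leukocyte markers and from 5882 to 27720 CPM for 9 fibroblast markers. Total counts ran from 13891863 to 71645903 per library. In such bulk samples, fewer endothelial cells and less RNA of a gene per endothelial cell cannot be told apart.

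The promoter sequences of the 3 receptor genes on which the results below turn are shown first, to let their base composition and ETS cores be read beside the expression values. ETS factors such as Erg and Fli1 are transcription factors known for their role in endothelial genes. RefSeq (GRCm38.p6) gave sequences for 6 of the 10 genes: Kdr, Flt1, Tek, Tie1, Eng and Cldn5. No sequence was matched for Pecam1, Cdh5, Vwf or Esam. Each window holds the 250 bases before the RefSeq start, written 5′ to 3′ on the gene's strand, with capitals for the ETS core GGAA or its reverse complement TTCC. The windows are chr5:75978456-75978705 on the minus strand for Kdr, chr5:147726012-147726261 on the minus strand for Flt1, and chr4:94739039-94739288 on the plus strand for Tek.
Kdr: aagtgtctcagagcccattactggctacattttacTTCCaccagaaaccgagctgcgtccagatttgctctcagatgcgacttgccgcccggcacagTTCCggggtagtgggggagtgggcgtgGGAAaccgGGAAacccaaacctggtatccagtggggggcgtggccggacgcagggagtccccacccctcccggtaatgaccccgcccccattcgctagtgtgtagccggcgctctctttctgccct
Flt1: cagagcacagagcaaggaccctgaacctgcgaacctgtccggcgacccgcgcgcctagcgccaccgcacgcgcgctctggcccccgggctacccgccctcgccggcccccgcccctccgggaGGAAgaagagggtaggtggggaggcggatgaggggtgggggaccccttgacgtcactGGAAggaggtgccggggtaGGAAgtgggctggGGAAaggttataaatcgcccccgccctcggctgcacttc
Tek: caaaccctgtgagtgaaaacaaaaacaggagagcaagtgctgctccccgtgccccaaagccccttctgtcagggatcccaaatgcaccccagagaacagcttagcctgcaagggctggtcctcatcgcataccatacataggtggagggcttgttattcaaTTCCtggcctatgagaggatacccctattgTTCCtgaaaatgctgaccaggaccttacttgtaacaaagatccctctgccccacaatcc

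The Kdr window held 4 ETS cores, the Flt1 window 4 and the Tek window 2. Tie1 held 7, Eng 3 and Cldn5 0. This short core was in 93.4% of 32851 promoter windows of the same length, with a median of 3 matches, so most promoters hold it. The TATA box letters TATAAA were found in Flt1 only, against 12.4% of all windows. The hypoxia response core GCGTG was found in Kdr and Flt1, against 28.2% of windows, and its other form ACGTG in none of the 6, against 16.6%. The GATA letters AGATAA were in none of the 6, against 9.99%. The GC box GGGCGG was found in Kdr, Flt1 and Cldn5, against 32.7%. All searches covered both strands, and no searched motif contains another. The G and C content was 70.4% for Flt1, 61.6% for Kdr and 51.2% for Tek, with a median of 52.4% over all windows. These matches describe letters and not binding.

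Levels were compared between genes per length of their annotated exons. In photon_ctrl the order from the highest was Cdh5 with 23.5 ± 5.87 CPM per kilobase (SD, n = 8), Eng with 16.01 ± 5.19, Pecam1 with 10.8 ± 3.99, Esam with 10.4 ± 2.61, Flt1 with 7.27 ± 1.71, Tie1 with 6.43 ± 1.72, Cldn5 with 5.44 ± 2.67, Kdr with 5.03 ± 1.02, Vwf with 2.94 ± 1.21 and Tek with 2.83 ± 1.01. The ranges of each neighbouring pair in this order overlapped, and the means of Pecam1 and Esam, of Flt1 and Tie1, of Tie1 and Cldn5, of Cldn5 and Kdr, and of Vwf and Tek differed by less than their SDs. Cdh5 was the highest and Tek the lowest in all 4 groups. Flt1 moved from the fifth place in both control groups to the third in both irradiated groups. Only Eng shares exon bases with another annotated gene, Fpgs on the opposite strand, over 1.51% of its exon length.

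Photons were followed by a lower level of Tek and by no other call among these genes. Tek, the angiopoietin receptor, fell by 46.7%, and the estimates for 8 of the 10 genes were below 0. The exceptions were Flt1, the decoy-like VEGF receptor, and Cldn5, a tight junction protein. After carbon ions no gene passed the test, and the estimates lay on both sides of 0. Fold changes are treated over control from edgeR's quasi-likelihood test, with p-values adjusted by Benjamini-Hochberg over all 20474 genes, two-sided, and a call means an adjusted p under 0.05.

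**Figure D1:**
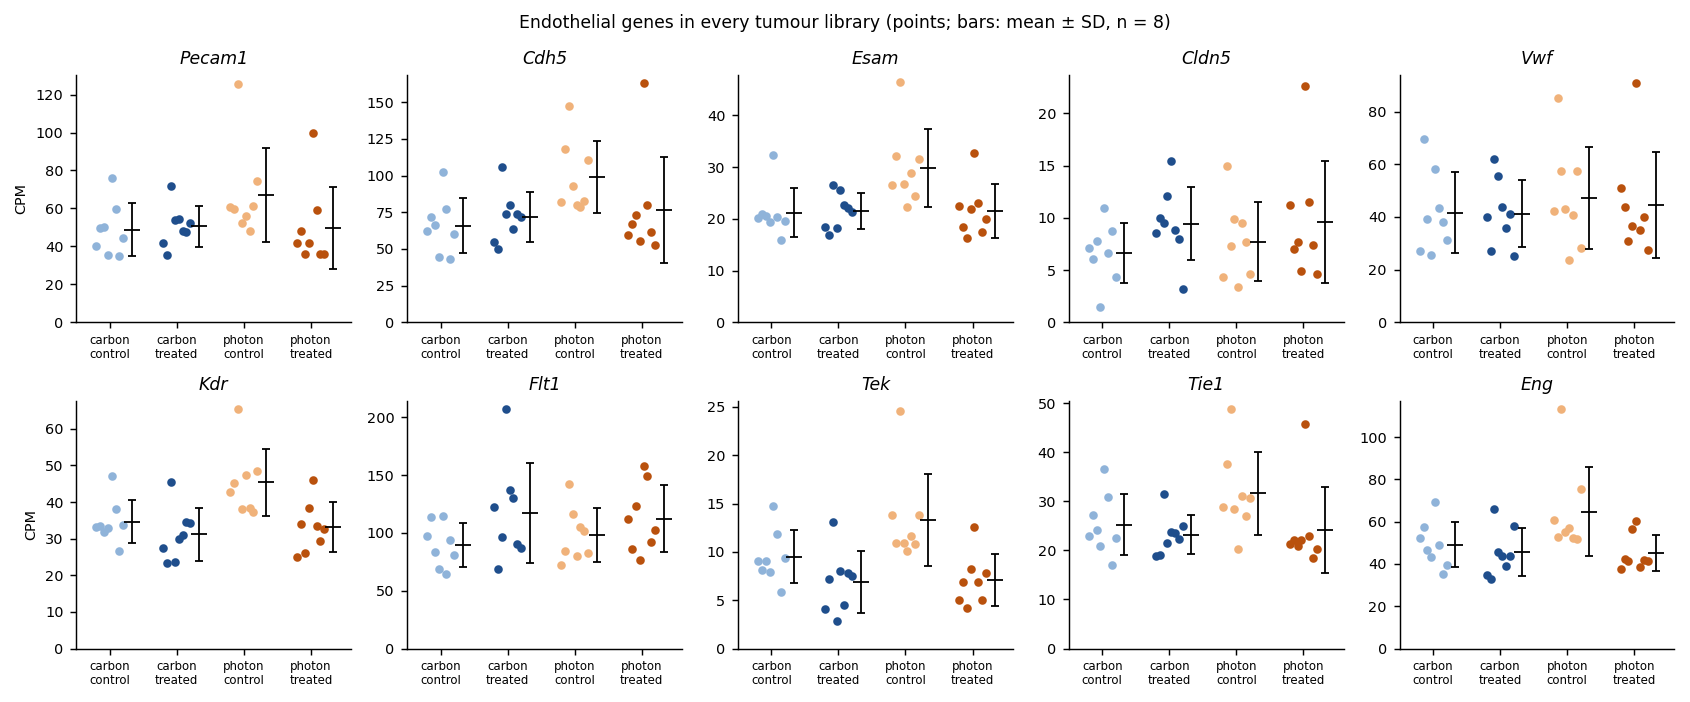
Level of each endothelial gene in CPM (vertical axis, from 0) in every library of the 4 groups (horizontal axis). Points are libraries and bars are mean ± SD (n = 8). The photon_ctrl points lie highest for most genes, 1 library stands above the rest in several panels, and Tek is lower in photon_treated than in photon_ctrl, with 7 of 8 libraries under the lowest control.

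In the photon arm 1 of the 10 genes was called, against a background of 3.81% of all tested genes. Of all genes, 2.10% were called lower. Unadjusted p was under 0.05 for 6 of the 10, all of them lower, and for 21.5% of all genes. The median of the 10 log2 fold changes was -0.41, beside a median of -0.0006 over all genes. It lay between -0.57 and -0.26 when 1 photon library at a time was left out. The carbon arm had 0 calls among the 10 by edgeR, against a background of 0% (0 of 20474 genes). DESeq2 called 0 of the 10 there, and 29 of the 38319 genes it fitted. Flt1 was the 1 gene of the 10 with an unadjusted p under 0.05 after carbon ions, as were 5.75% of all genes, and the median of the 10 was 0.0044.

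Tek encodes the receptor Tie2, which angiopoietin-1 activates and which keeps vessels quiescent. Its level was 10.1, 11.3 and 24.5 CPM in photon_ctrl (lowest, median and highest), and 4.24, 6.90 and 12.6 CPM in photon_treated. In 7 of 8 irradiated tumours Tek was below every control, while the remaining tumour lay within the control range. The log2 fold change was -0.91 (SE 0.249, 95% interval -1.41 to -0.40, edgeR adjusted p = 0.0356). In carbon_ctrl the values were 5.82, 9.06 and 14.8 CPM, and in carbon_treated 2.88, 7.33 and 13.1 CPM. Here the groups overlapped widely, and 3 of 8 treated tumours were below every control. The log2 fold change after carbon ions was -0.46 (SE 0.248, adjusted p = 0.898 by edgeR). The carbon effect minus the photon effect was 0.44 with a 95% interval of -0.27 to 1.16 and an edgeR adjusted p of 0.589, which did not pass.

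The Tek call after photons was not stable to the choice of libraries. It passed in 7 of 16 fits that each left out 1 photon library, with adjusted p from 0.0176 to 0.115 (edgeR). Its estimate stayed between -1.07 and -0.72 in all 16.

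Tie1, the partner receptor of Tek long described as an orphan receptor, ran from 20.4 through a median of 29.8 to 48.8 CPM in photon_ctrl and from 18.5 through 21.7 to 45.7 CPM in photon_treated. In 7 of 8 irradiated tumours Tie1 was at or below 22.9 CPM and 1 stood far above. The photon log2 fold change of -0.39 (SE 0.171) did not pass (edgeR adjusted p = 0.179), nor did that of -0.12 after carbon ions (edgeR adjusted p = 0.997).

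Kdr, the main signalling receptor for VEGF, had 37.4, 44.0 and 65.5 CPM in photon_ctrl and 25.02, 33.1 and 46.1 CPM in photon_treated. In 6 of 8 irradiated tumours it was below every control. The photon log2 fold change of -0.45 (SE 0.137) was just short of the threshold (edgeR adjusted p = 0.0542). In the carbon arm Kdr had 26.6, 33.4 and 47.0 CPM in controls and 23.3, 30.4 and 45.5 CPM after treatment, and these ranges overlapped. There the change was -0.15 on the log2 scale (SE 0.137, edgeR adjusted p = 0.997).

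Flt1 binds VEGF tightly, signals weakly and also yields a soluble form that traps the ligand. It took the opposite sign to Kdr in both arms. In the carbon arm it had 64.7, 88.9 and 115 CPM in controls and 68.5, 109 and 207 CPM after treatment, with 4 of 8 treated tumours above every control. The log2 fold change was 0.39 (SE 0.183), which failed after adjustment over all genes (edgeR adjusted p = 0.828). With 1 library left out at a time, this estimate ran from 0.22 to 0.47. Photon_ctrl had 72.6, 93.0 and 143 CPM and photon_treated had 76.9, 107 and 158 CPM, ranges that nearly coincided. The photon log2 fold change was 0.20 (SE 0.182, edgeR adjusted p = 0.570).

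**Figure D2:**
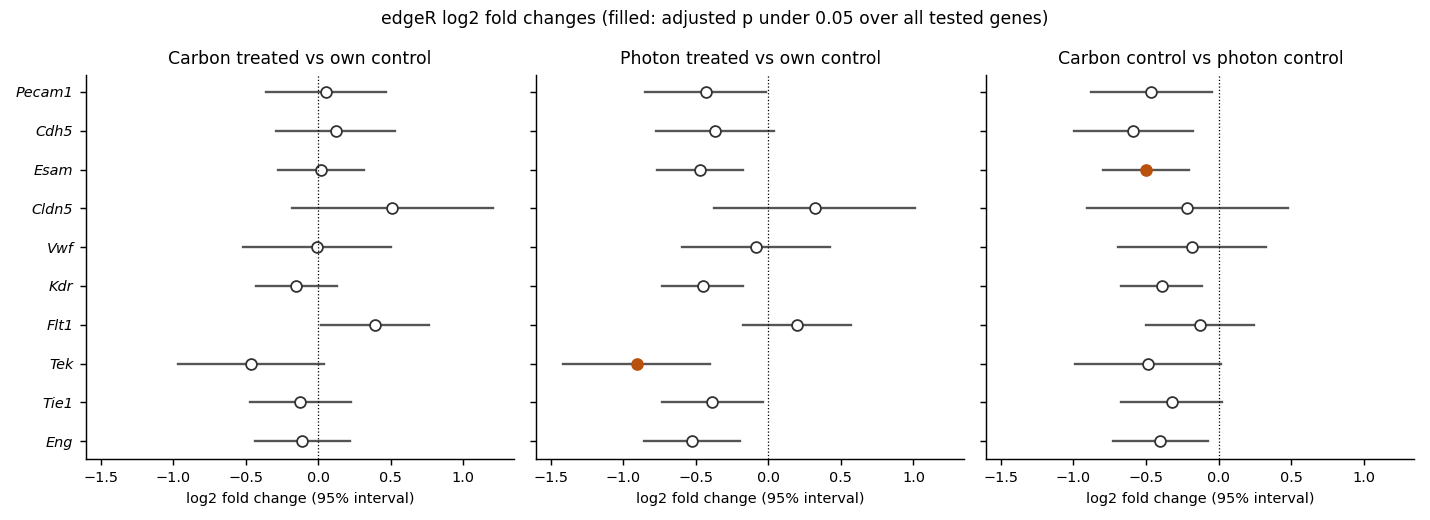
Log2 fold change (horizontal axis) of each endothelial gene (vertical axis) with its 95% interval, for carbon_treated against carbon_ctrl, photon_treated against photon_ctrl, and carbon_ctrl against photon_ctrl. Filled points passed edgeR's test over all genes. The 2 filled points are Tek after photons at -0.91 and Esam between the controls at -0.50, and the last 2 panels share the photon_ctrl libraries.

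Because Flt1 and Kdr share a ligand and Tek and Tie1 form a complex, each pair was also read as a ratio within a library. A ratio removes variation that both genes share. With group means removed, Tek and Tie1 varied together across libraries (r = 0.72), while Flt1 and Kdr did not (r = 0.016). The Flt1 to Kdr ratio thus holds the spread of both genes. The pairs were picked after their values had been seen, so no test is given. The log2 ratio of Flt1 to Kdr (of CPM) was 1.10 ± 0.35 (SD, n = 8) in photon_ctrl and 1.74 ± 0.43 in photon_treated, and 7 of 8 irradiated tumours were above the control median. It was 1.36 ± 0.35 in carbon_ctrl and 1.87 ± 0.66 in carbon_treated, with 6 of 8 above the control median and the highest tumour at 3.14. The mean shifted up by 0.64 after photons and by 0.51 after carbon ions on the log2 scale. Between the untreated groups it was higher by 0.26 in carbon_ctrl, and 7 of 8 of those tumours were above the photon_ctrl median. Without carbon_treated replicate 4, the tumour at 3.14, the carbon shift was 0.33, and it was 0.75 among M-titled and 0.16 among D-titled libraries alone.

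The log2 ratio of Tek to Tie1 was -1.26 ± 0.27 in photon_ctrl and -1.78 ± 0.31 in photon_treated. All 8 irradiated tumours were below the control median, although the ranges overlapped. All 8 untreated carbon_ctrl tumours were below the photon_ctrl median too, at a mean difference of -0.16. In the carbon arm the ratio was -1.42 ± 0.16 in controls and -1.86 ± 0.56 after treatment, with 7 of 8 below the control median. The carbon_treated tumours were more spread, and the same tumour, replicate 4, had the highest Flt1 to Kdr ratio and the lowest Tek to Tie1 ratio, at -2.88. The mean shift of Tek to Tie1 after carbon ions was -0.45, -0.30 without replicate 4, and -0.64 among M-titled and -0.15 among D-titled libraries alone.

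**Figure D3:**
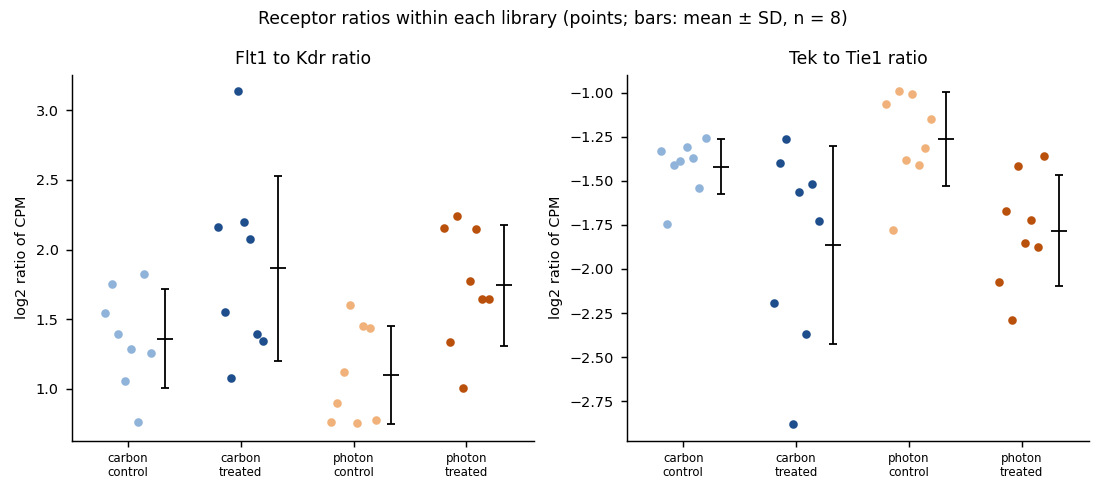
Log2 ratio of CPM (vertical axis) of Flt1 to Kdr and of Tek to Tie1 in each library of the 4 groups (horizontal axis). Points are libraries and bars are mean ± SD (n = 8). Flt1 to Kdr has a higher mean, and Tek to Tie1 a lower mean, in each irradiated group than in its own controls.

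Eng, or endoglin, is a co-receptor for TGF-beta family ligands on dividing endothelium. It had 52.0, 56.0 and 113 CPM in photon_ctrl and 37.8, 41.7 and 60.3 CPM in photon_treated, with 6 of 8 irradiated tumours below every control. Its photon log2 fold change of -0.53 (SE 0.161) was again just short of the threshold (edgeR adjusted p = 0.0574). After carbon ions it was -0.11 (SE 0.161, edgeR adjusted p = 0.997).

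Esam, an adhesion molecule of endothelial tight junctions, had 22.2, 27.8 and 46.4 CPM in photon_ctrl and 16.3, 20.9 and 32.8 CPM in photon_treated. In 5 of 8 irradiated tumours it was below every control. The log2 fold change of -0.47 (SE 0.146) did not pass (edgeR adjusted p = 0.0588). After carbon ions the estimate was 0.019 (SE 0.145), and the carbon effect minus the photon effect was 0.49 (SE 0.206), the 1 difference among the 10 genes with an unadjusted p under 0.05, as 13.04% of all genes had. It did not pass either (edgeR adjusted p = 0.307).

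Pecam1 and Cdh5 are the classical surface and junction markers of endothelium. Pecam1 had 48.1, 60.2 and 126 CPM in photon_ctrl and 35.9, 41.8 and 99.6 CPM in photon_treated. Cdh5, VE-cadherin of the adherens junction, had 78.3, 87.6 and 148 CPM and then 52.6, 64.4 and 163 CPM. In both genes 1 irradiated tumour stood high while most others sat under the control minimum, 5 of 8 for Pecam1 and 6 of 8 for Cdh5. The photon log2 fold changes were -0.43 (SE 0.205) and -0.37 (SE 0.2004), and neither passed (edgeR adjusted p = 0.212 and 0.285). After carbon ions they were 0.053 and 0.12 (edgeR adjusted p = 0.997 for each). With 1 library left out at a time, the photon estimates ran from -0.64 to -0.24 for Pecam1 and from -0.61 to -0.26 for Cdh5.

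Vwf, the clotting factor that endothelium stores and platelets also carry, had photon and carbon log2 fold changes of -0.086 (SE 0.251) and -0.011 (SE 0.251), with edgeR adjusted p of 0.877 and 0.998. Its level ran from 23.7 to 85.2 CPM in photon_ctrl and from 27.5 to 90.7 CPM in photon_treated, nearly the same range. Cldn5 varied most between libraries of a group, with a pooled SD of 0.75 on the log2 CPM scale, above that of 87.6% of all tested genes. Its log2 fold changes were 0.51 (SE 0.340) after carbon ions and 0.32 (SE 0.340) after photons, with edgeR adjusted p of 0.995 and 0.626. The intervals of both genes reached from below 0 to above 0 in each arm, and their direction was not resolved.

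In each group 1 tumour was the highest for most of the 10 genes, and in the photon arm the calls changed with it. Carbon_ctrl replicate 5 was the highest of its group for 9 of 10 genes and carbon_treated replicate 3 for 8 of 10. The library photon_treated replicate 5 was the highest of its group for 10 of 10 genes, and photon_ctrl replicate 3 for 8 of 10. The first was also the highest of its group in summed level for 10 of 15 gene lists, among them mural, fibroblast, leukocyte and adipocyte markers, and the second for 6 of 15. Without photon_treated replicate 5, 7 of the 10 genes were called lower after photons: Pecam1, Cdh5, Kdr, Tek, Tie1, Eng and Esam, with log2 fold changes from -1.07 for Tek to -0.53 for Kdr, and 739 of 20673 genes were called in all. Without photon_ctrl replicate 3, 0 of the 10 and 239 of 20608 genes were called. The median log2 fold change of the 10 was -0.26 without photon_ctrl replicate 3 and -0.57 without photon_treated replicate 5. With both left out, 0 of the 10 and 231 of 20583 genes were called, and the median log2 fold change was -0.45, while Tek had -0.89 (edgeR adjusted p = 0.0547).

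Skeletal muscle markers had a lower median level in photon_treated than in photon_ctrl, with no marker passing. The 10 muscle markers summed to 6.41, 622 and 1354 CPM in photon_ctrl (lowest, median, highest) and to 3.85, 11.5 and 324 CPM in photon_treated, and none was at 0 in all libraries. All 10 estimates were lower after photons with an unadjusted p under 0.05, and 0 of 10 passed. With the muscle level as a covariate, 0 of the 10 endothelial genes were called after photons. The median of their log2 fold changes was then -0.50, against -0.41 without the covariate. Tek then had a log2 fold change of -0.94 and did not pass (edgeR adjusted p = 0.0732), and 243 genes in all were called in place of 781. Fibroblast markers summed to 12896 to 27720 CPM in photon_ctrl and 9574 to 17638 CPM in photon_treated, with 9 of 9 estimates below 0 and 0 passing. Leukocyte markers summed to 275 to 481 CPM and 183 to 333.4 CPM, with Csf1r (log2 fold change -0.54, edgeR adjusted p = 0.0260) and Itgax (-0.57, edgeR adjusted p = 0.0150) lower among 8 tested. The part of these other tissues in the endothelial values was not tested beyond the muscle covariate.

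Between the untreated groups, Esam was lower in carbon_ctrl than in photon_ctrl, and all 10 estimates were below 0, from -0.59 for Cdh5 to -0.13 for Flt1. That was 1 call among the 10, a share near the background of 9.14% of all genes called, 4.01% being lower. Esam had 15.9, 20.3 and 32.3 CPM in carbon_ctrl, and 7 of 8 of those tumours were below every photon_ctrl tumour. Its log2 fold change was -0.50 (SE 0.145, edgeR adjusted p = 0.0271). Among M-titled libraries alone it was -0.43 (edgeR adjusted p = 0.240), with 4 carbon_ctrl libraries left, and without photon_ctrl replicate 3 it was -0.37 (edgeR adjusted p = 0.105). The call passed in 10 of 16 fits that each left out 1 control library, with edgeR adjusted p from 0.0049 to 0.105. Cdh5 and Kdr had -0.59 and -0.39 (edgeR adjusted p = 0.0605 and 0.0666). Some markers of other cell types also differed in this comparison. Of 9 fibroblast markers all were below 0 in carbon_ctrl against photon_ctrl and 2 were called (Col1a2 and Pdgfra), at sums of 6507 to 17570 CPM against 12896 to 27720 CPM. Of 14 mural markers 13 were below 0 with 0 called, at 496 to 925 CPM against 666 to 1091 CPM. Of 8 epithelial markers all were above 0 and 3 were called (Cdh1, Cldn4 and Cldn7), at 3051 to 5369 CPM against 2680 to 4378 CPM. Their part in the endothelial values was not tested.

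Photon_ctrl had the highest of the 4 group means for 8 of the 10 genes, all but Flt1 and Cldn5. This comparison and the photon effect share the photon_ctrl libraries, so the lower values of carbon_ctrl and of photon_treated are not independent of each other. The irradiated groups, which share no library with photon_ctrl, lay close together: carbon_treated over photon_treated ran from -0.11 for Vwf to 0.064 for Flt1 on the log2 scale. Of the 10 genes, edgeR called 0, beside 5.08% of all genes, and DESeq2 called 0, beside 1989 of 38319 genes fitted. By edgeR 0 of the 10 had an unadjusted p under 0.05, beside 25.2% of all genes. For all 10 genes the 95% interval lay within -1 and 1. The test of the carbon effect against the photon effect called 0 of the 10 by edgeR, beside 0.0781% of all genes, and 0 by DESeq2, beside 268 of 38319 genes fitted. All 10 edgeR estimates were above 0.

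Within the carbon arm, values are given for each title letter. Tek was -0.75 on the log2 scale among M-titled libraries (4 controls, 5 treated; edgeR adjusted p = 0.535) and -0.069 among D-titled libraries (4 controls, 3 treated; edgeR adjusted p = 0.999). Flt1 was 0.58 among M-titled and 0.084 among D-titled libraries, and Cldn5 was 0.34 and 0.74. Esam was near 0 in both, at 0.013 and 0.028. Neither set gave a call among the 10 genes, beside 0 of 21134 genes called among M-titled and 2 of 19910 among D-titled libraries, and the difference between the sets was not tested.

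The ligands of these receptors did not pass in either arm: 0 of 8 VEGF and angiopoietin ligands were called after carbon ions or photons. Vegfa, the main ligand of Kdr and Flt1, had log2 fold changes of 0.55 (SE 0.274) after carbon ions and 0.61 (SE 0.274) after photons, and edgeR adjusted p of 0.877 and 0.186. Its photon_ctrl tumours had 99.6, 148 and 288 CPM and its photon_treated tumours 97.97, 226 and 381 CPM. In each arm 7 of 8 irradiated tumours were above the control median, although the ranges overlapped. Angpt2, the context-dependent antagonist of Tek, had 0.45 (SE 0.187) after carbon ions and 0.029 (SE 0.187) after photons, with edgeR adjusted p of 0.733 and 0.949. Angpt1, its activating ligand, had -0.21 and -0.28, with edgeR adjusted p of 0.997 and 0.473. Pgf, a ligand of Flt1 alone, had 0.73 and 0.30, with edgeR adjusted p of 0.897 and 0.700.

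Vegfb, another Flt1 ligand, had 0.19 and -0.053, and Vegfc, the lymphatic growth factor, had 0.25 and -0.28. Between the controls 2 of the 8 ligands, Vegfc and Angpt4, were lower in carbon_ctrl, beside 9.14% of all genes called and 4.01% called lower. Vegfc was lower in carbon_ctrl by 0.82 on the log2 scale, with edgeR adjusted p = 0.0161. A list of 11 hypoxia genes, several of which share the oxygen-sensing control of Vegfa, had all estimates above 0 in both arms and 0 calls. The smallest p among them belonged to P4ha1 after carbon ions (0.67, edgeR adjusted p = 0.346) and to Vldlr after photons (0.88, edgeR adjusted p = 0.122).

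Other proteins act beside these receptors on the same cells. Over all genes 3.81% were called after photons and 2.10% called lower, a background for this list and those that follow. In the list of 8 co-receptors and receptor-linked proteins, 2 fell and 0 rose after photons. They were Ptprb, the phosphatase VE-PTP that dephosphorylates Tek, with a log2 fold change of -0.37 (SE 0.110, edgeR adjusted p = 0.0482), and Gab1, a docking protein downstream of receptor kinases, with -0.54 (SE 0.148, edgeR adjusted p = 0.0348). Gab1 had 11.7 to 17.4 CPM in photon_treated and 17.9 to 28.0 CPM in photon_ctrl. It was named for its small p, so ranges that lie apart are no further support. After carbon ions the estimates of these genes were -0.27 each, and 0 of 8 passed. Between the controls 1 of the 8, Bmpr2, was lower in carbon_ctrl, beside 9.14% of all genes called and 4.01% called lower.

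Over all genes 2.10% were called lower after photons and 50.1% had estimates below 0. Among 25 further endothelial junction and surface genes, 3 fell after photons, 0 rose and 22 had estimates below 0, with a median of -0.48. They were Cyyr1 at -0.90 (edgeR adjusted p = 0.0111), Emcn, the surface sialomucin endomucin, at -0.55 (edgeR adjusted p = 0.0203) and Tal1, a transcription factor of blood and endothelium, at -0.74 (edgeR adjusted p = 0.0458). Cyyr1 had 12.99 to 38.2 CPM in photon_ctrl and 7.51 to 12.5 CPM in photon_treated, and was likewise named for its small p. Carbon ions gave 0 calls among the 25, and 13 of the estimates were above 0. Between the untreated groups 21 of the 25 were below 0 in carbon_ctrl against photon_ctrl, with a median of -0.37. Emcn was called lower there too (-0.49, edgeR adjusted p = 0.0187), beside 4.01% of all genes called lower.

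Of 18 tip cell, Notch and arterial or venous genes, 2 fell after photons and 0 rose, beside 2.10% of all genes called lower. Aplnr, the apelin receptor of veins and sprouting vessels, also named for its small p, had 49.95, 69.6 and 97.5 CPM in photon_ctrl. In photon_treated Aplnr had 24.0, 34.5 and 49.3 CPM. Its log2 fold change was -1.08 (SE 0.237, edgeR adjusted p = 0.0123). Gja4, an arterial connexin, had -0.94 (SE 0.227, edgeR adjusted p = 0.0203). After carbon ions these genes had -0.57 and -0.50 (edgeR adjusted p = 0.741 and 0.798). Between the untreated groups 15 of the 18 estimates were below 0 in carbon_ctrl against photon_ctrl. Dll4, Jag2 and Sox7 were called lower there, beside 4.01% of all genes.

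Of 5 tested endothelial activation genes, 2 fell after photons, both markers of venules, beside 2.10% of all genes called lower. Between the controls 1 of the 5, Icam1, was lower in carbon_ctrl, beside 4.01% of all genes called lower. Ackr1, an atypical chemokine receptor, had -2.70 (SE 0.668, edgeR adjusted p = 0.0225) and Selp, P-selectin, had -1.08 (SE 0.319, edgeR adjusted p = 0.0498). Ackr1 was low, with medians of 1.80 CPM in photon_ctrl and 0.251 CPM in photon_treated. Platelet genes, which could also carry Selp and Vwf, gave 0 calls among 6 tested, with sums of 15.1 to 42.1 CPM in photon_ctrl and 13.1 to 34.1 CPM in photon_treated. Of 4 tested erythroid genes 0 were called, at sums of 1.17 to 9.54 CPM over all libraries.

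Among 6 lymphatic endothelial markers, Lyve1, which macrophages also express, was the 1 call after photons, at -2.40 (SE 0.638, edgeR adjusted p = 0.0310). Of 14 mural cell markers, which label the pericytes and smooth muscle around vessels, 2 fell after photons and 13 had estimates below 0. Pdgfrb, the receptor through which endothelium recruits pericytes, and Rgs5 had log2 fold changes of -0.52 and -0.67 (edgeR adjusted p = 0.0265 and 0.0299). Carbon ions gave 0 calls in each of these lists. Of 7 adipocyte markers, all had estimates below 0 after carbon ions and 0 passed. Their sum in carbon_ctrl was 409 CPM in replicate 5, beside a group median of 48.6 CPM. Of 8 epithelial markers 0 passed after either beam.

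Across libraries the endothelial genes varied together. Cdh5 was used as the reference, and log2 CPM were compared over all 32 libraries after removing each group's mean, with 100000 permutations within groups and adjustment over 19 relations. Pearson's r with Cdh5 was 0.91 for Pecam1 and 0.91 for Tie1, 0.81 for Esam, 0.72 for Eng and for Kdr, 0.64 for Vwf, 0.62 for Tek, 0.51 for Cldn5 and 0.44 for Flt1. Spearman's rho ran from 0.85 for Pecam1 down to 0.41 for Cldn5. The permutation adjusted p for r ran from 3.8e-05, the smallest the permutations gave after adjustment, to 0.019 for Flt1, and for rho up to 0.0374 for Cldn5.

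Without the 2 libraries farthest from the median of Cdh5, which were photon_treated replicate 5 and photon_ctrl replicate 3, r was 0.86 for Pecam1, 0.84 for Tie1 and 0.46 for Tek. The relation no longer passed for Flt1 (r = 0.27, permutation adjusted p = 0.273) and Cldn5 (r = 0.41, permutation adjusted p = 0.0705). The agreement was uneven in the carbon_treated group, where r with Cdh5 was 0.97 for Pecam1 but 0.074 for Cldn5 and 0.19 for Flt1.

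**Figure D4:**
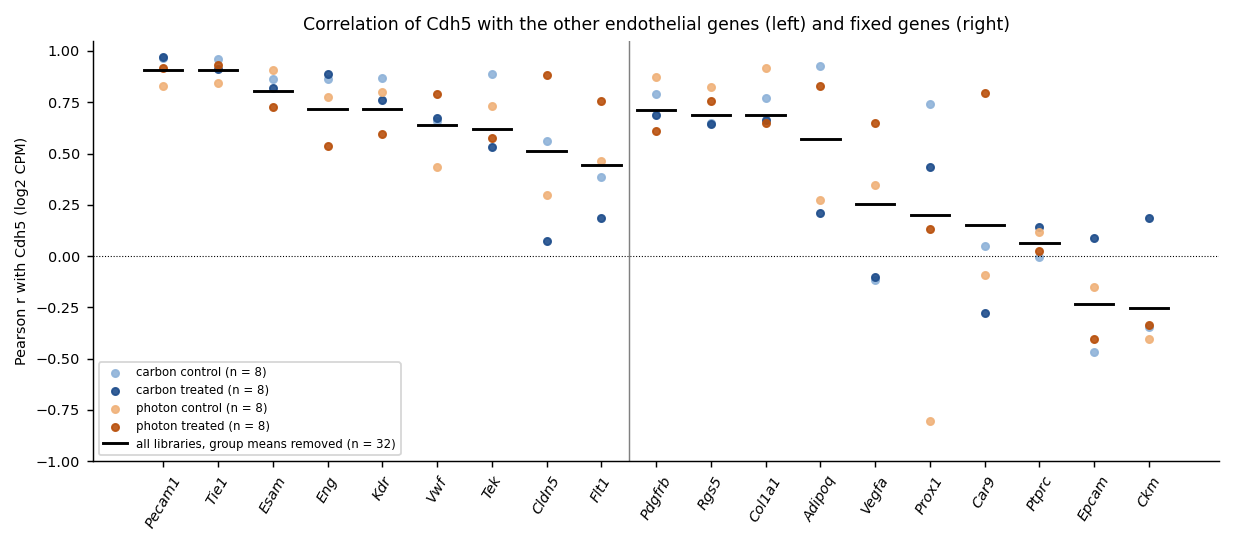
Pearson r of each gene with Cdh5 (vertical axis) for the other 9 endothelial genes on the left and 10 genes of other cell types and pathways on the right. Points are the r within each group (n = 8) and bars the r over 32 libraries with group means removed. Pecam1 and Tie1 have the highest bars, at 0.91, and Ckm the lowest, at -0.25.

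Of the 10 genes from outside the set, 4 passed. Pericyte genes followed Cdh5, with r = 0.71 for Pdgfrb (rho 0.69, permutation adjusted p = 3.8e-05) and 0.69 for Rgs5 (rho 0.56, permutation adjusted p = 0.000166). So did the fibroblast collagen gene Col1a1 (r = 0.69, rho 0.74, permutation adjusted p = 6.33e-05) and the adipocyte gene Adipoq (r = 0.57, rho 0.54, permutation adjusted p = 0.00126). Adipoq was near the floor, with group medians from 0.11 to 0.30 CPM and a lowest value of 0 in each group. Its r was 0.93 in carbon_ctrl and 0.83 in photon_treated, but 0.21 in carbon_treated and 0.27 in photon_ctrl. The relation did not pass for Vegfa (r = 0.26), Prox1 (r = 0.20), the hypoxia gene Car9 (r = 0.15), the leukocyte gene Ptprc (r = 0.065), the epithelial gene Epcam (r = -0.24) or the muscle gene Ckm (r = -0.25), and their permutation adjusted p ran from 0.250 to 0.723. Prox1, the lymphatic transcription factor, differed most between groups: r was 0.74 in carbon_ctrl and -0.80 in photon_ctrl, and this difference was not tested.

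Among themselves the 10 genes formed a close core and a looser edge. Over the 45 pairs, Tie1 had the highest mean r with the others, 0.70, and Flt1 the lowest, 0.30. Kdr went most closely with Tek (r = 0.84) and Eng (r = 0.82), and not with Flt1 (r = 0.016) or Cldn5 (r = -0.0098). Flt1 went most closely with Cldn5 (r = 0.55), which in turn went most closely with Vwf (r = 0.70). Flt1 and Tek had r = -0.14, the lowest of the 45. All of these values share libraries and depth and are given without a test.

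The genes with the pattern most like that of the set were sought among 12277 other genes with a mean log2 CPM of at least 2, by Pearson's r with the mean of the 10 over 32 libraries after removing group means. The first 8 were Afap1l1 (r = 0.93), Col4a2 (0.89), Abcc9 (0.87), Adgrf5 (0.86), Ramp2 (0.85), Kctd12b (0.84), She (0.84) and Cd93 (0.83). Col4a2 encodes a basement membrane collagen, Adgrf5 and Cd93 endothelial surface proteins and Abcc9 a channel subunit of pericytes. All 8 had photon estimates below 0, and 1 of them, Kctd12b, was called (log2 fold change -0.62, edgeR adjusted p = 0.0210). The 21 ranked genes of the endothelial junction and surface list had a median r of 0.69 with the set, beside -0.029 over all ranked genes.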

How the data were processed

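Bulk RNA of 32 KPC36 mouse tumours was sequenced from stranded mRNA libraries made from RNA with an integrity number above 7, per the labels' protocols. The authors deposited 1 table of expected counts per gene, neither whole nor normalized as the values show. RSEM 1.3.3, Trimmomatic 0.32, FastQC 0.12.0 and the build mm10 are named in the submitters' processing notes. The aligner, the annotation version and the use of strand in counting are not given in the sources used here. Reads shared by near-identical genes are split by estimation in expected counts, which carries over to the values.

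The expected counts were rounded to whole numbers, which changed no library's total by more than 0.00403%. The design had assumed whole counts. Genes were kept by edgeR's filterByExpr with a minimum count of 10 (20474 of 55103 rows), scaled by TMM and tested in edgeR 4.0.16 (R 4.3.3, limma 3.58.1) with the quasi-likelihood test in 1 model of all 32 libraries with a term per group. P-values were adjusted by Benjamini-Hochberg over all tested genes of a contrast. CPM use TMM-scaled library sizes, and log2 CPM a prior count of 2. Totals ran from 13891863 to 71645903 counts, so counting error is small beside the spread between libraries for all 10 genes. The script was tested on simulated data. Exon lengths and overlaps came from GENCODE M21.

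Groups came from the treatment label. The 10 genes and the gene lists were chosen with earlier results of these data known, and the receptor ratio pairs after their values were seen. Named outside the 10 were 6 ligands, the fixed genes compared with Cdh5, list genes called between the controls, and the 8 genes most like the set. From each other list, up to 2 genes per direction and arm with the smallest p among those passing are named. Where none passed, the 1 with the smallest p was picked, and only some of these are named. Alternatives covered DESeq2 1.42.0, size factors, upper-quartile scaling, filters, subsets of libraries, covariates and leaving out each library in turn.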

Additional observations from a re-analysis of the deposited data

Results flagged for a closer look

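In 12 of 40 combinations of gene and group, 1 tumour stood apart from the other 7 by Dixon's test at the 95% level, and in each it was the highest. Chance alone flags about 1 in 20 groups, and the genes are not independent, since 2 libraries gave 11 of the 12.

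In photon_ctrl, replicate 3 stood apart for Pecam1 with 126 CPM, where the next tumour had 74.3 CPM. It did so for Kdr with 65.5 CPM (next 48.5), for Tek with 24.5 CPM (next 13.8), for Eng with 113 CPM (next 75.4) and for Esam with 46.4 CPM (next 32.2).

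In photon_treated, replicate 5 stood apart for Pecam1 with 99.6 CPM (next 59.0), for Cdh5 with 163 CPM (next 80.2) and for Tie1 with 45.7 CPM (next 22.9). It did so too for Vwf with 90.7 CPM (next 51.2), for Esam with 32.8 CPM (next 23.02) and for Cldn5 with 22.7 CPM (next 11.5). The remaining case was Esam in carbon_ctrl, where replicate 5 had 32.3 CPM and the next tumour 20.9 CPM.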

How the results depend on the processing

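The count of endothelial genes called after photons was 1 and depended on the processing. It was 0 with no low-count filter, 0 with the skeletal muscle covariate and 0 with both highest photon libraries left out, 2 with a stricter filter (Kdr and Tek) and 4 with DESeq2 (Kdr, Tek, Eng and Esam). Leaving out 1 library at a time gave 0 to 7. Between the controls it was 0 among M-titled libraries, 0 with the title letter as a covariate, 0 with both highest photon libraries left out, 2 with DESeq2 and 3 in a fit of those groups alone, and 0 to 4 when 1 library was left out (4 without carbon_ctrl replicate 5). The cause was not tested. The counts of 0 after carbon ions, between the irradiated groups and for the difference of the effects were 0 under every alternative run. Over all genes, the photon calls went from 781 to 431 with no filter, 243 with the muscle covariate, 231 without both highest photon libraries, 966 of 16574 with the stricter filter and 1550 of 38319 with DESeq2, and the control calls from 1871 to 1125 without those libraries, 1081 with the title letter, 973 among M-titled libraries, 2379 of 38319 with DESeq2, 2219 of 19248 in a fit of those groups alone and 2180 of 20589 without carbon_ctrl replicate 5.

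Signs changed only for small estimates that had not passed. Carbon_treated over photon_treated became -0.032 for Pecam1 and -0.048 for Eng with upper-quartile scaling, 0.055 for Esam and 0.01002 for Cldn5 among M-titled libraries, and 0.0024 for Esam in a fit of those groups alone. With the muscle covariate it became 0.046 for Cdh5, 0.00045 for Tek, 0.062 for Tie1, 0.093 for Esam and 0.17 for Cldn5, and with the title letter 0.033 for Esam and 0.065 for Cldn5. Without both highest photon libraries it became 0.16 for Cdh5, 0.13 for Tek, 0.14 for Tie1, 0.13 for Vwf, 0.11 for Esam and 0.29 for Cldn5. After carbon ions Pecam1 became -0.057 among M-titled and Vwf 0.085 among D-titled libraries. The r of Cdh5 with Ptprc became -0.073 without the 2 farthest libraries and -0.038 among M-titled libraries.

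Leaving out 1 library at a time changed the sign of the same comparison of irradiated groups for Pecam1 (-0.055 to 0.25), Cdh5 (-0.19 to 0.16), Flt1 (-0.097 to 0.16), Tek (-0.23 to 0.13), Tie1 (-0.13 to 0.14), Eng (-0.072 to 0.092), Vwf (-0.20 to 0.13), Esam (-0.048 to 0.11) and Cldn5 (-0.16 to 0.29). It also did so after carbon ions for Pecam1 (-0.032 to 0.17), Vwf (-0.11 to 0.14) and Esam (-0.033 to 0.13), after photons for Vwf (-0.31 to 0.091), and for the difference of the effects for Vwf (-0.10 to 0.30) and Cldn5 (-0.025 to 0.50). The receptor ratios kept their sign in each alternative run, from 0.57 to 0.75 for Flt1 to Kdr and from -0.59 to -0.45 for Tek to Tie1 after photons, and from 0.16 to 0.75 and from -0.64 to -0.15 after carbon ions (the ends nearest 0 among D-titled libraries). The subset of D-titled libraries and the fit without both highest photon libraries were chosen after seeing the data, as were the ratios.

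No paired analysis was possible because the labels give no replicate numbers shared between groups.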
